A study of Homo sapiens with 17 samples.

Results

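The BCL2 family of survival regulators was examined through 10 genes in MOLM13, an established cell line grown from a human acute myeloid leukaemia with an MLL-AF9 fusion gene. They were taken by gene name, with earlier results of these data known: the anti-apoptotic genes BCL2, BCL2L1, MCL1 and BCL2A1, the pore-forming effector BAK1, and the BH3-only genes BCL2L11, BID, BMF, BIK and BAD. All 10 were found among the 58278 gene identifiers counted in each of 17 RNA-seq libraries, and all 10 passed the filter on low counts in each fit. The libraries came from 2 CRISPR knockout experiments on the same line. In the first, 3 libraries had a non-targeting guide (NT), 3 a HOXA9 knockout (HOXA9_KO) and 3 a SAFB knockout (SAFB_KO). In the second, 4 libraries had a non-targeting guide (NT_MEIS1ex) and 4 a MEIS1 knockout (MEIS1_KO). Each knockout was compared with the non-targeting libraries of its own experiment, so the HOXA9 and SAFB comparisons share their 3 controls. The labels do not say whether the cells were pools or clones, how long after editing RNA was taken, or whether replicates were grown as separate cultures.

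BCL2 family proteins decide at the outer mitochondrial membrane whether a cell enters apoptosis. The effectors BAK1 and BAX open pores that release cytochrome c, the anti-apoptotic members bind and restrain them, and the BH3-only proteins occupy the anti-apoptotic members or activate the effectors directly. In acute myeloid leukaemia BCL2 is the target of the drug venetoclax, and reliance on MCL1 or BCL2A1 in its place is a known route of resistance. HOXA9 and its cofactor MEIS1 bind DNA through homeodomains and keep leukaemic cells with MLL fusions immature, and SAFB (scaffold attachment factor B) binds both chromatin and RNA in the nuclear matrix.

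Sequence upstream of the start site was read from RefSeq (GRCh38.p14), as the 250 bases before each annotated start, for 8 of the 10 members. The table had no entry for MCL1 and BIK. Letters were searched on both strands. The core that MEIS proteins bind, TGACAG, was found in 13.06% of all 34943 windows of this length. The composite of HOX and PBX proteins, TGATTNAT, was found in 2.49% and the site of the myeloid factor PU.1, GAGGAAGT, in 2.17%. The GC box, with the letters GGGCGG, was found in 42.55% of windows and the TATA box, searched as TATAAA, in 10.75%. The window of BCL2, at chr18:63319770-63320019 on the minus strand, had 24 CpG dinucleotides and none of these letters. GENCODE 29 places all 250 of its bases within an exon of a BCL2 transcript that starts further upstream, so it is not printed. The 3 stretches below belong to BCL2A1, BAK1 and BMF. In HOXA9_KO and SAFB_KO, BCL2A1 rose the most of the 10 genes, BAK1, the only effector among them, rose, and BMF, a BH3-only gene, fell. Capitals mark matches, and all 3 are written 5′ to 3′ on the gene's own strand, the minus strand of the genome.
BCL2A1, chr15:79971364-79971393: ctgaATTAATCAcaggatGAGGAAGTggct
BAK1, chr6:33580294-33580526: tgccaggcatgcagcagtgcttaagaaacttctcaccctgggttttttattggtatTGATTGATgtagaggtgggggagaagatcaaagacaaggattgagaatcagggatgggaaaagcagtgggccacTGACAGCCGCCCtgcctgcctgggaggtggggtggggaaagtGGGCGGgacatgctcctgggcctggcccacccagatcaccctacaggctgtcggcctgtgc
BMF, chr15:40108893-40109129: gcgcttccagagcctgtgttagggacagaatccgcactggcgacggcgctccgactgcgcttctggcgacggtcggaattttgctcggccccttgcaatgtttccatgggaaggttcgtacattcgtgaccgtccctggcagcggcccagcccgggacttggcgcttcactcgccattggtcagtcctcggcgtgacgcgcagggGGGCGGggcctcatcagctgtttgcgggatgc

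In BCL2A1 the 30 bases, all that is shown of a window that also lies wholly in an annotated exon, hold a HOX-PBX composite on the opposite strand, 193 bases before the start site, and a PU.1 match 179 bases before it. A TATA box match stood 70 bases before the start in the same window, which had 2 CpG dinucleotides. The BAK1 stretch holds a HOX-PBX composite 194 bases and a MEIS core 120 bases before the start, with GC boxes at 114 (opposite strand, next to the MEIS core) and 78 bases. The BMF stretch holds a GC box 45 bases before the start and no other match, and a second annotated start of BMF, not shown, had none. Among members that are not shown, the MEIS core also stood 22 and 61 bases before the 2 annotated starts of BAD, which was called in no knockout, GC boxes stood before BAD, BCL2L11 and BID, and TATA box matches before BCL2L1. Matches of short letters are a description of the sequence, and no binding was measured here.

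Reads assigned to genes numbered 23264176 to 67842104 a library. The myeloid markers fixed for the label (CD33, ANPEP, PTPRC, SPI1, CEBPA, FLT3, MPO and CD4) summed to 1384.5 CPM or more in every library (CPM is a count scaled to library size) and none was at 0 in a whole group, while 8 erythroid and megakaryocyte markers summed to 3.92 CPM at most, with HBA2 and PF4 at 0 in every library. Lymphoid markers summed to 103 to 182 CPM, and stromal and epithelial markers to 166 to 511 CPM, nearly all of it PECAM1 (161 CPM in NT), which myeloid cells also express. The targeted genes were lower in their own knockouts: HOXA9 by 1.91-fold in HOXA9_KO (edgeR adjusted p = 1.4e-20), SAFB by 1.86-fold in SAFB_KO (5.9e-14) and MEIS1 by 2.91-fold in MEIS1_KO (1.0e-09). MEIS1 was also 2.91-fold lower in HOXA9_KO (9.4e-29) and 1.24-fold lower in SAFB_KO (3.2e-06). Mitochondrial rRNA took 31.9 to 35.5% of assigned reads in HOXA9_KO, 24.9 to 27.0% in SAFB_KO, 22.5 to 28.4% in NT and at most 0.00941% in the MEIS1 experiment, so levels are not compared across the 2 experiments. Reads assigned to no annotated feature were 16.4 to 18.1% in NT, 8.65 to 9.27% in HOXA9_KO and 10.6 to 12.7% in SAFB_KO. This share is of assigned, no-feature and ambiguous reads together. Whether the no-feature reads lay in introns or between genes was not examined. The part of either share in the results was not tested. Changes below are log2 fold changes ± SE from edgeR's quasi-likelihood test, with p-values adjusted by the Benjamini-Hochberg method over all genes tested, and a gene is called at an adjusted p under 0.05.

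BCL2 itself was lower in all 3 knockouts, by 3.27-fold in HOXA9_KO, 1.56-fold in SAFB_KO and 1.24-fold in MEIS1_KO. Around it, the other anti-apoptotic genes MCL1 and BCL2A1 and the effector BAK1 rose in both HOXA9_KO and SAFB_KO (MCL1 not under every scaling), BCL2L1 and BCL2L11 rose in HOXA9_KO, and BMF fell in both. In HOXA9_KO, 5 members were called higher, where 27.6% of the 18876 genes tested were, and 3 lower, where 29.9% were. In SAFB_KO the members called were 3 higher (20.2% of all genes) and 2 lower (15.3%). In MEIS1_KO 1 member was higher (4.97% of 15744 genes) and 1 lower (3.84%). The median change of the 10 members was 0.19 in HOXA9_KO, 0.12 in SAFB_KO and 0.07 in MEIS1_KO, beside -0.07, -0.02 and 0.00 over all genes. Scaled to nuclear protein-coding counts the members' medians were -0.06, -0.02 and 0.10. The HOXA9_KO and SAFB_KO counts stand against backgrounds in which a large share of all genes moved. Nothing particular to the family is read from the counts of any of the 3 knockouts.

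**Figure D1:**
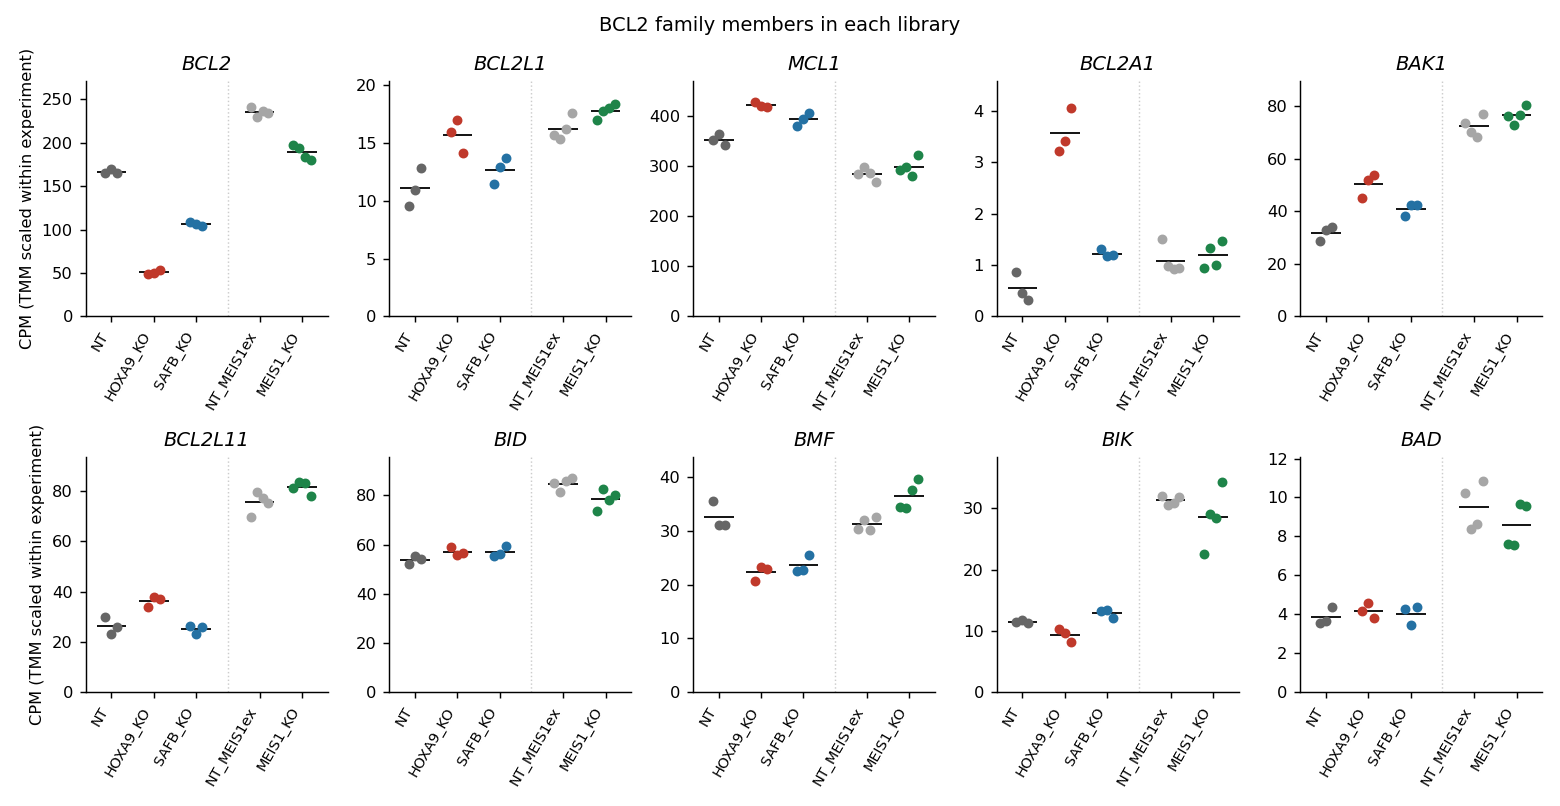
CPM of each of the 10 members (vertical axes, each from 0) in every library, by group; points are libraries, bars are group means, and the dotted line separates the experiments. BCL2 lies at 165 to 169 CPM in NT, 104 to 109 in SAFB_KO and 49.1 to 53.2 in HOXA9_KO, with no overlap between the groups.

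Among the anti-apoptotic genes, BCL2 (chr18:63123346-63320128, minus strand, GRCh38) was counted at 165, 169 and 166 CPM in NT, from 7632 to 12222 reads a library. The HOXA9_KO libraries held 49.1, 50.3 and 53.2 CPM. In SAFB_KO the values were 109, 107 and 104 CPM. The 3 groups did not overlap, and each was tight: the SD was 2.19, 2.10 and 2.35 CPM (n = 3 each). The fall was -1.71 ± 0.04 in HOXA9_KO (adjusted p = 1.1e-37) and -0.65 ± 0.04 in SAFB_KO (2.4e-20). Set directly against each other, HOXA9_KO was 2.09-fold below SAFB_KO (-1.07 ± 0.04, adjusted p = 4.6e-28). In the MEIS1 experiment the controls held 241, 229, 237 and 234 CPM. The MEIS1_KO libraries held 198, 194, 184 and 181 CPM, all below the lowest control, a fall of -0.32 ± 0.05 (adjusted p = 3.2e-04). In bulk RNA, fewer cells that express a gene and less of its RNA per cell cannot be told apart.

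MCL1, a short-lived protein that restrains BAK1 and BCL2L11, stood at 351, 363 and 342 CPM in NT. Its levels were 426, 418 and 416 CPM in HOXA9_KO and 379, 393 and 406 CPM in SAFB_KO, both above every control library. The rise was small, 0.26 ± 0.03 in HOXA9_KO (adjusted p = 1.0e-09) and 0.16 ± 0.03 in SAFB_KO (6.3e-05). It depended on the scaling: with libraries scaled to nuclear protein-coding counts it was 0.00 (adjusted p = 0.907) and 0.02 (0.645), under which the median of all genes moved from -0.07 to -0.32 in HOXA9_KO and from -0.02 to -0.16 in SAFB_KO. The same scaling turned the split of all genes in HOXA9_KO from 5207 higher and 5640 lower to 2861 and 9293, and in SAFB_KO from 3812 and 2886 to 1712 and 5535. In MEIS1_KO, MCL1 was counted at 291, 297, 280 and 322 CPM against 284, 298, 286 and 268 CPM in its controls. Those groups overlapped, and the difference was 0.07 with a 95% interval of -0.03 to 0.17.

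BCL2A1, an anti-apoptotic gene of myeloid cells induced by NF-kB, was the least abundant member in NT, with 64, 23 and 15 reads, or 0.866, 0.454 and 0.326 CPM. In HOXA9_KO it reached 3.22, 3.42 and 4.05 CPM (97 to 150 reads). The SAFB_KO libraries held 1.31, 1.18 and 1.19 CPM. Both knockouts lay above all 3 controls, and HOXA9_KO above SAFB_KO. The rise was 2.62 ± 0.24 in HOXA9_KO, or 6.15-fold (adjusted p = 1.0e-13), and 1.07 ± 0.26 in SAFB_KO, or 2.10-fold (9.7e-04). Without NT replicate 1, the highest control, these were 3.18 and 1.63. In the MEIS1 experiment the controls held 1.499, 0.990, 0.932 and 0.933 CPM and the MEIS1_KO libraries 0.952, 1.32, 1.004 and 1.46 CPM. These groups overlapped, and the difference was 0.11 with a 95% interval of -0.32 to 0.55.

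BCL2L1, which encodes BCL-XL, was counted at 9.54, 10.9 and 12.8 CPM in NT. It stood at 15.98, 16.95 and 14.08 CPM in HOXA9_KO and at 11.5, 12.9 and 13.7 CPM in SAFB_KO. The HOXA9_KO libraries lay above every other library of that experiment, and SAFB_KO overlapped NT. The rise in HOXA9_KO was 0.51 ± 0.09 (adjusted p = 9.0e-06), and 0.26 (adjusted p = 0.0164) when scaled to nuclear protein-coding counts. In SAFB_KO the difference of 0.21 ± 0.09 missed the threshold (adjusted p = 0.0757), and passed it without NT replicate 3 (0.32, 0.0047), without SAFB_KO replicate 1 (0.28, 0.0326) and with no filter on low counts (0.21, 0.0488). MEIS1_KO held 16.97 to 18.39 CPM against 15.3 to 17.5 CPM, a difference of 0.13 that was not called (adjusted p = 0.255). Of the exon bases of BCL2L1, 42.97% overlap the antisense gene ABALON, and whether reads were counted by strand is not stated.

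**Figure D2:**
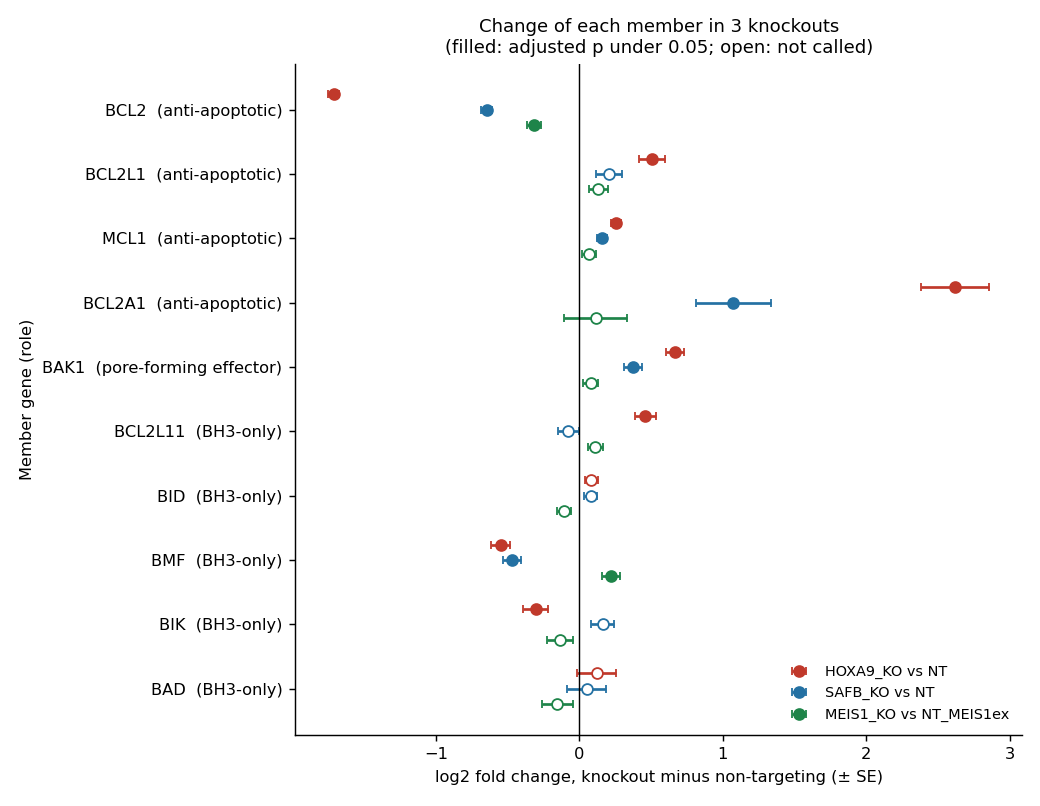
Log2 fold change of each member, knockout minus the non-targeting libraries of its own experiment (horizontal axis), with SE bars; filled points passed an adjusted p under 0.05. BCL2 lies left of 0 in all 3 knockouts (-1.71, -0.65 and -0.32), and BMF left in HOXA9_KO and SAFB_KO but right in MEIS1_KO (0.22).

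Because a ratio of 2 genes within a library does not depend on the scaling, BCL2 was also set against its anti-apoptotic relatives in counts. For each read of MCL1 there were 0.471, 0.466 and 0.485 reads of BCL2 in NT. That ratio was 0.115, 0.120 and 0.128 in HOXA9_KO and 0.287, 0.272 and 0.257 in SAFB_KO. The groups did not overlap, and the mean log2 ratio was lower by 3.92-fold in HOXA9_KO and 1.75-fold in SAFB_KO. In the MEIS1 experiment the ratio was 0.851, 0.770, 0.830 and 0.873 in the controls and 0.679, 0.653, 0.658 and 0.561 in MEIS1_KO, again without overlap (1.31-fold lower). Against BCL2L1, BCL2 counts fell from 12.9 to 17.3 reads per read in NT to 2.97 to 3.78 in HOXA9_KO and 7.59 to 9.48 in SAFB_KO. In the MEIS1 experiment they went from 13.3 to 15.4 in the controls to 9.83 to 11.6 in MEIS1_KO. Against BCL2A1, the ratio was 191 to 509 in NT, 13.1 to 15.3 in HOXA9_KO (23.1-fold lower) and 83.3 to 90.8 in SAFB_KO (3.80-fold lower). Here the MEIS1 groups overlapped, at 161 to 254 in the controls and 123 to 208 in MEIS1_KO.

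Exact two-sided permutation tests of the 9 ratios could not go below 0.1 with 3 libraries against 3 nor below 0.0286 with 4 against 4. They gave p = 0.1 for all 6 ratios of HOXA9_KO and SAFB_KO (exact), p = 0.0286 for BCL2:MCL1 and BCL2:BCL2L1 in MEIS1_KO and 0.114 for BCL2:BCL2A1 there. Adjusted over the 9 tests, 8 were 0.113 and the last 0.114 (exact permutation), so none passed. In 8 of the 9 ratios the groups did not overlap, each with less BCL2 in the knockout.

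**Figure D3:**
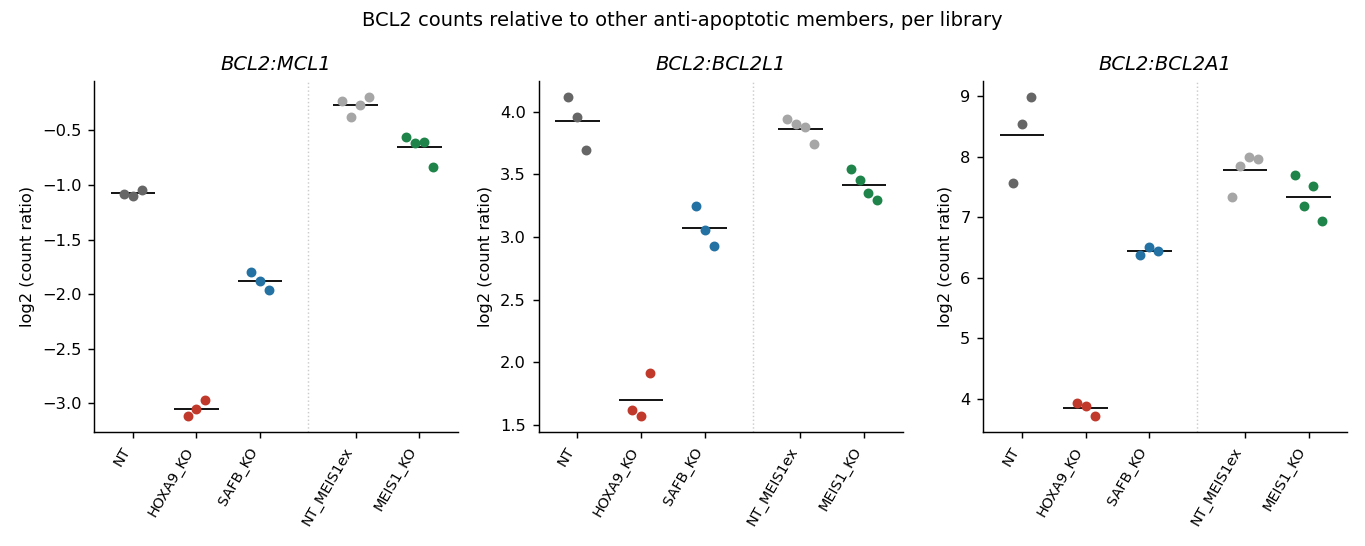
Log2 of BCL2 counts over MCL1, BCL2L1 and BCL2A1 counts (vertical axes, not from 0) in each library by group; points are libraries, bars are group means, the dotted line separates the experiments. Within its experiment HOXA9_KO is lowest in each panel, at a mean of -3.05, 1.70 and 3.84, against -1.08, 3.92 and 8.37 in NT.

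BAK1, the effector that MCL1 and BCL2L1 hold inactive, was counted at 28.8, 32.8 and 34.0 CPM in NT. It reached 45.2, 52.1 and 53.9 CPM in HOXA9_KO and 38.3, 42.3 and 42.6 CPM in SAFB_KO. Both knockouts lay above the controls, and the groups did not overlap each other. The rise was 0.67 ± 0.06 in HOXA9_KO (1.59-fold, adjusted p = 5.7e-10) and 0.37 ± 0.06 in SAFB_KO (1.29-fold, 3.7e-05), and HOXA9_KO exceeded SAFB_KO by 0.30 ± 0.06 (4.7e-04). In MEIS1_KO it stood at 76.2, 72.9, 76.7 and 80.4 CPM against 73.7, 70.3, 68.2 and 77.2 CPM, which overlapped (0.08, adjusted p = 0.394).

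The BH3-only genes did not move as a group. BCL2L11, which encodes BIM, rose in HOXA9_KO to 34.0, 37.9 and 37.0 CPM from 29.9, 23.2 and 25.7 CPM in NT (0.46 ± 0.07, adjusted p = 3.5e-06). SAFB_KO held 26.1, 23.2 and 26.0 CPM, overlapping the controls (-0.08, adjusted p = 0.455), and lay 0.54 ± 0.07 below HOXA9_KO (9.2e-07). Relative to nuclear protein-coding counts, however, the HOXA9_KO rise was 0.21 (adjusted p = 0.0143) and the SAFB_KO difference was -0.22 (adjusted p = 0.0234). MEIS1_KO held 81.1, 83.7, 83.3 and 78.2 CPM against 69.6, 79.8, 77.3 and 75.4 CPM (0.11, adjusted p = 0.205). Part of BCL2L11, 10.92% of its exon bases, overlaps the antisense gene MIR4435-2HG.

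BMF, a BH3-only protein tethered to the cytoskeleton, was called in opposite directions in the 2 experiments. It fell from 35.7, 31.1 and 31.1 CPM in NT to 20.7, 23.3 and 23.0 CPM in HOXA9_KO (-0.55 ± 0.07, adjusted p = 4.0e-10). SAFB_KO held 22.5, 22.8 and 25.6 CPM (-0.47 ± 0.06, adjusted p = 4.3e-08). Those 2 knockouts overlapped, with a difference of -0.08 and a 95% interval of -0.21 to 0.05, and both lay below every control. In MEIS1_KO the values of 34.6, 34.4, 37.6 and 39.7 CPM all exceeded the controls at 30.5, 32.0, 30.3 and 32.6 CPM. That rise of 0.22 ± 0.06 was narrowly called (adjusted p = 0.0326), and was not called without MEIS1_KO replicate 3 (0.21, adjusted p = 0.116) or 4 (0.18, 0.0968), nor without NT_MEIS1ex replicate 3 (0.20, 0.0985) or 4 (0.24, 0.0509). Tested as a difference between effects, the HOXA9 effect on BMF minus that of MEIS1 was -0.72 ± 0.10 (adjusted p = 9.9e-08), and the SAFB effect minus that of MEIS1 -0.68 ± 0.10 (2.5e-06).

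BIK, a BH3-only protein of the endoplasmic reticulum, stood at 11.5, 11.8 and 11.3 CPM in NT, 10.3, 9.74 and 8.16 CPM in HOXA9_KO and 13.3, 13.4 and 12.1 CPM in SAFB_KO. HOXA9_KO lay below the controls (-0.30 ± 0.09, adjusted p = 0.00286), a call lost without HOXA9_KO replicate 3 (-0.20, adjusted p = 0.0734). SAFB_KO lay above the controls without passing the test (0.16, adjusted p = 0.128), and HOXA9_KO was 0.46 ± 0.09 below SAFB_KO (2.7e-05). In MEIS1_KO the 4 libraries spread from 22.6 to 34.3 CPM around controls of 30.6 to 32.0 CPM (adjusted p = 0.42).

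BID, which caspase-8 cleaves to link death receptors to mitochondria, was not called in any of the 3 knockouts. Its levels were 52.1 to 55.5 CPM in NT, 55.9 to 59.0 in HOXA9_KO (0.08, adjusted p = 0.107) and 55.2 to 59.5 in SAFB_KO (0.08, 0.165). The HOXA9_KO difference passed the test with RLE factors (0.12, adjusted p = 0.023), and reversed when scaled to nuclear protein-coding counts (-0.17, 0.00115). In MEIS1_KO it stood at 73.8 to 82.6 CPM against 81.3 to 86.9 CPM (-0.11, adjusted p = 0.206). BAD, a sensor of growth factor signals, was low at 3.56 to 4.39 CPM in NT, 3.81 to 4.60 in HOXA9_KO and 3.43 to 4.36 in SAFB_KO. All 3 ranges overlapped, as did 7.55 to 9.67 CPM in MEIS1_KO and 8.39 to 10.8 CPM in its controls. Of the exon bases of BAD, 23.65% overlap GPR137, a gene on the opposite strand.

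Tests of the difference between effects, over all 17 libraries, set the knockouts of the 2 experiments beside each other. The HOXA9 effect was above the MEIS1 effect for 6 members, where 24.5% of 18836 genes were, and below it for 2, where 19.7% were. Those 2 were BCL2 (-1.35 ± 0.06, adjusted p = 1.3e-18) and BMF. BCL2A1 (2.55 ± 0.35, adjusted p = 1.6e-07) and BAK1 (0.63 ± 0.09, 3.3e-07) led the 6, with BCL2L1 (0.42), BCL2L11 (0.39), BID (0.23) and MCL1 (0.23). The last 4 were not called when scaled to nuclear protein-coding counts (BCL2L1 0.09, BCL2L11 0.07, BID -0.09, MCL1 -0.09), nor BID and MCL1 among genes with a mean of at least 2 CPM (0.14 and 0.13). The SAFB effect was above the MEIS1 effect for BAK1 (0.30 ± 0.09, adjusted p = 0.0145) and BID (0.20, 0.0445), 2 members against 12.4% of all genes, and below it for BCL2 (-0.32 ± 0.06, 3.4e-04) and BMF, 2 against 8.49%. Under the protein-coding scaling neither was called (BAK1 0.12, BID 0.02), BAK1 was not called without NT replicate 1 (0.24, adjusted p = 0.0661), and BID's call was lost in 12 alternatives. For BCL2A1 the SAFB effect exceeded the MEIS1 effect by 0.97 ± 0.36 (adjusted p = 0.0532), a value that reached 1.53 (0.00317) without NT replicate 1. Between the first 2 knockouts, 5 members were higher in HOXA9_KO than in SAFB_KO, against 20.1% of all genes, and 2 lower, BCL2 and BIK, against 20.5%. The 5 were BCL2A1 (1.55 ± 0.23, adjusted p = 1.4e-07), BCL2L11 (0.54), BCL2L1 (0.30), BAK1 (0.30) and MCL1 (0.10). The differences of BCL2L1 and MCL1 were not called without SAFB_KO replicate 1 (0.24 and 0.07).

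Levels of different genes were compared per kb of exon. The length is that of all annotated exons merged, 11.765 kb for BCL2 and 0.953 kb for BIK, whichever transcripts were expressed. The ranks depend on that choice. MCL1 led in every group, at 80.5 ± 2.51 CPM per kb in NT (SD, n = 3). BAK1 (14.4) and BCL2 (14.2) followed there with overlapping ranges, then BID and BIK (both 12.1, overlapping), BMF (5.99), BCL2L11 (3.95) and BCL2L1 (3.35, overlapping with BCL2L11), BAD (2.26) and BCL2A1 (0.504). In HOXA9_KO, BCL2 dropped from rank 3 to rank 7, at 4.33 ± 0.18 CPM per kb, where it overlapped BCL2L1 above it (4.73) and BMF below it (4.10). BCL2A1, last in each other group, stood at 3.27 ± 0.40 there, above BAD at 2.45. In SAFB_KO, BCL2 ranked 5 at 9.07 ± 0.20, apart from BID above it and BMF below. In the MEIS1 experiment it ranked 4 in the controls (20.02 ± 0.44) and 5 in MEIS1_KO (16.1 ± 0.68), overlapping BID in both.

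**Figure D4:**
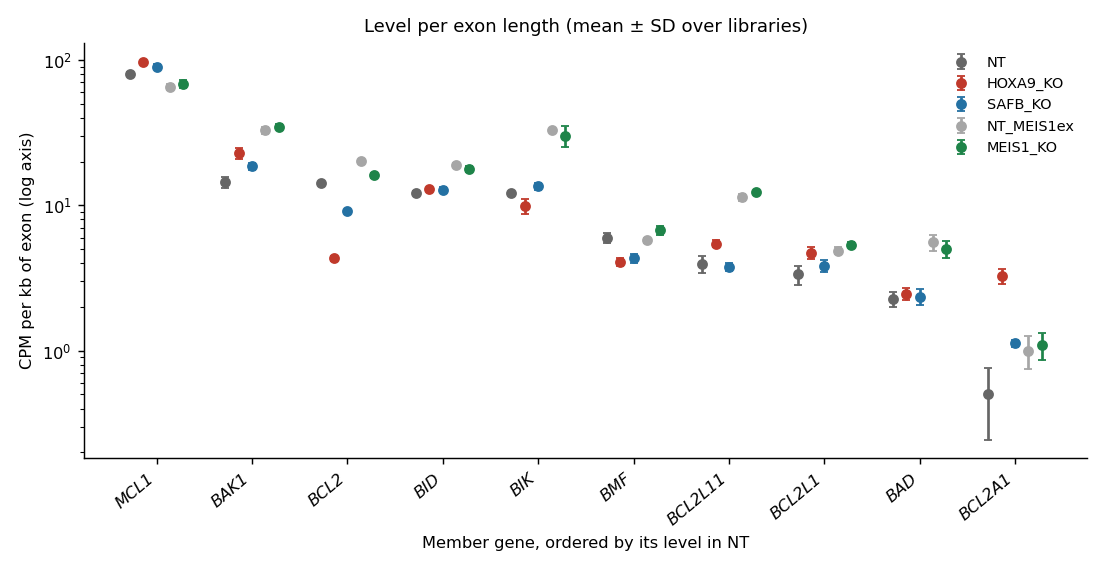
CPM per kb of exon (log axis) of the 10 members in each group, mean ± SD over 3 or 4 libraries, ordered by the level in NT. MCL1 is highest in every group, and BCL2 in HOXA9_KO (4.33) stands below SAFB_KO (9.07) and NT (14.2). The 2 experiments were scaled separately, so levels are compared only within each.

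Other family genes outside the 10 also moved in HOXA9_KO and SAFB_KO. Of 12 tested there, 6 rose and 3 fell in HOXA9_KO, and 4 rose and 5 fell in SAFB_KO, while 0 of 11 were called in MEIS1_KO by edgeR, DESeq2 or limma-voom (3 at an unadjusted p under 0.05 by each). These and the counts of the pathway lists that follow stand beside the shares of all genes, 27.6% higher and 29.9% lower in HOXA9_KO, 20.2% and 15.3% in SAFB_KO and 4.97% and 3.84% in MEIS1_KO, and medians beside -0.07, -0.02 and 0.00. Nothing particular to a list is read from them. BAX, the partner effector of BAK1, rose from 17.6, 18.7 and 19.9 CPM in NT to 39.7, 39.2 and 38.3 CPM in HOXA9_KO (1.06 ± 0.06, adjusted p = 1.6e-21). It stood at 28.5, 29.1 and 27.1 CPM in SAFB_KO (0.60 ± 0.06, adjusted p = 9.2e-12). BBC3, the BH3-only protein PUMA, rose by 1.10 ± 0.11 (adjusted p = 2.7e-12) and 0.48 ± 0.11 (6.3e-04). PMAIP1, the BH3-only protein NOXA that binds MCL1, went the other way, by -0.97 ± 0.06 (adjusted p = 1.2e-18) and -0.58 ± 0.06 (4.9e-11). All 3 are textbook p53 targets. None of the 3 was called in MEIS1_KO, where NT_MEIS1ex replicate 1 held 102 CPM of BAX and 28.4 CPM of BBC3 against 77.7 to 83.2 and 17.3 to 19.5 CPM in the other 3 controls.

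Among the rest of these genes, BCL2L13, a mitophagy receptor, was higher by 0.36 and 0.10 in HOXA9_KO and SAFB_KO, BNIP2 by 0.10 in both, and BCL2L2-PABPN1, a readthrough transcript, by 1.05 in HOXA9_KO. BNIP3, another mitophagy receptor, was lower by 0.27 and 0.37 and BCL2L2 (BCL-w) by 0.25 and 0.33. BNIP3L was called 0.09 higher in HOXA9_KO and 0.16 lower in SAFB_KO, and BCL2L15, at 0.327 CPM in NT, lower in SAFB_KO. Scaled to nuclear protein-coding counts, BNIP2 and BNIP3L turned to -0.15 and -0.16 in HOXA9_KO, and BCL2L13 and BNIP2 to -0.04 each in SAFB_KO. BCL2L12 and HRK, a neuronal BH3-only gene, were not called in any of the 3 knockouts. Of the exon bases of BCL2L2-PABPN1, 94.7% are shared with its 2 parent genes, so its count is uncertain.

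**Figure D5:**
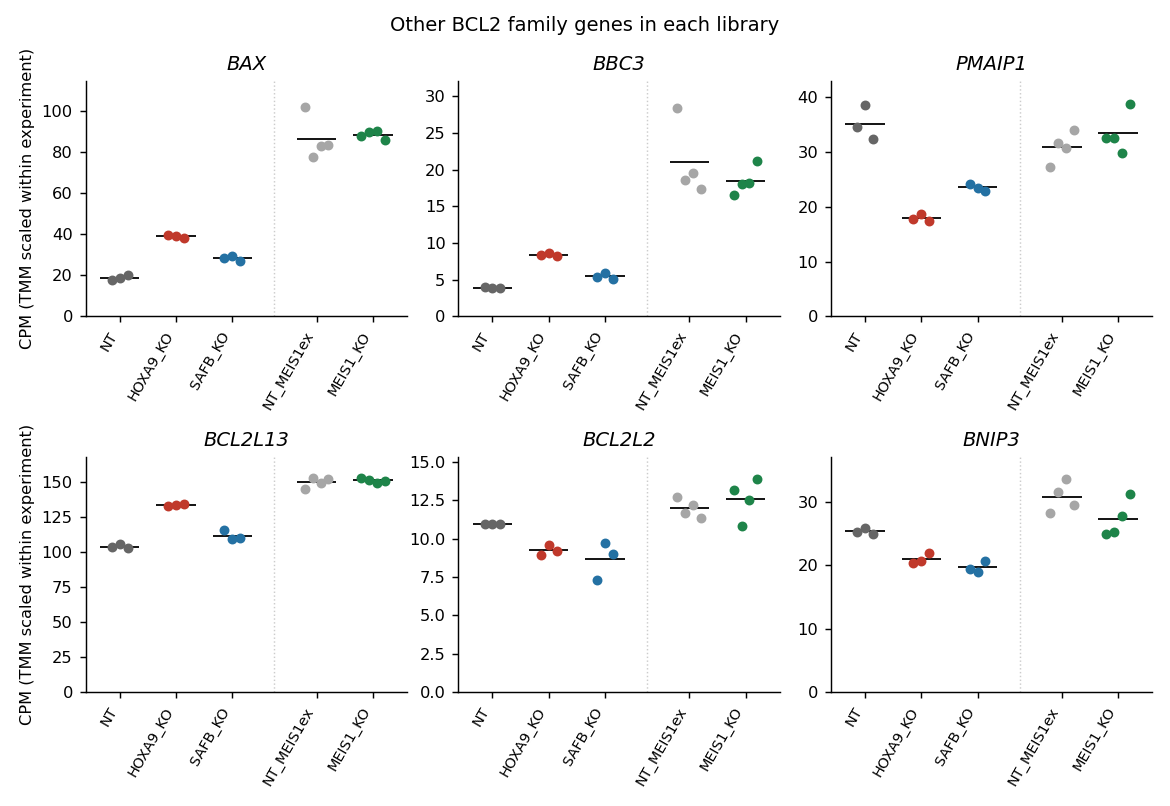
CPM of 6 further family genes (vertical axes from 0) in each library by group; points are libraries, bars are group means, the dotted line separates the experiments. BAX and BBC3 are above NT in HOXA9_KO and SAFB_KO and PMAIP1 is below, without overlap between the 3 groups.

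Downstream of the pore, 14 of 24 tested genes of the mitochondrial apoptosis machinery were higher and 3 lower in HOXA9_KO, and 11 higher and 2 lower in SAFB_KO. The median was 0.16 and 0.13, or -0.09 and -0.01 when scaled to nuclear protein-coding counts. TMBIM6 (BAX inhibitor 1) rose by 0.40 and PPIF (cyclophilin D) by 0.47 in HOXA9_KO, where the caspase inhibitor BIRC5 (survivin) fell by 0.67. In SAFB_KO, VDAC1 rose by 0.21, PPIF by 0.26, and CYCS (cytochrome c) and APAF1, the parts of the apoptosome, by 0.19 and 0.20. In MEIS1_KO 1 of 25 rose, APAF1 by 0.30, and 1 fell, SLC25A6 by 0.19. SLC25A6 was listed at 0 in every library of the first experiment, but at 1182 to 1416 CPM in NT_MEIS1ex. That 0 is not read as absence of expression, and its cause was not tested.

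In the death receptor pathway, 9 of 15 tested genes rose and 3 fell in HOXA9_KO, 5 rose and 2 fell in SAFB_KO, and 5 rose and 0 fell in MEIS1_KO, with 1 lower at an unadjusted p under 0.05 in the last, which DESeq2 called and limma-voom did not. The medians were 0.23, 0.07 and 0.15 (-0.02, -0.07 and 0.17 when scaled to nuclear protein-coding counts). TNFRSF1B, a TNF receptor, rose from 45.4 to 157 CPM in HOXA9_KO (1.80), to 84.7 CPM in SAFB_KO (0.90), and by 0.26 in MEIS1_KO. CFLAR, the caspase-8 inhibitor c-FLIP, rose by 1.01 in HOXA9_KO, 0.24 in SAFB_KO and 0.32 in MEIS1_KO. TNFRSF10B, a TRAIL receptor, rose by 0.75 and 0.44 in HOXA9_KO and SAFB_KO. TNFSF10, the ligand TRAIL, fell by 0.91 in both and rose by 0.40 in MEIS1_KO. Of the others named by their p, FAS rose by 0.44 in SAFB_KO and MLKL by 0.43 in MEIS1_KO.

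Among 28 regulators of the family's abundance, 15 rose and 7 fell in HOXA9_KO, 8 rose and 5 fell in SAFB_KO, and in MEIS1_KO 0 rose and 1 fell (TP73, by 0.22), with 0 higher at an unadjusted p under 0.05 by edgeR, and 0 called higher by DESeq2 or limma-voom. Medians were 0.14, 0.07 and -0.05, against -0.11, -0.07 and -0.03 when scaled to nuclear protein-coding counts. SPI1, which encodes PU.1, rose by 1.27 and 0.51 in HOXA9_KO and SAFB_KO, and CEBPA by 0.92 and 0.35. ATF4, an activator of PMAIP1 and other stress genes, fell by 0.50 and 0.51. PIM1, a kinase that phosphorylates BAD, fell by 0.55 and 0.43.

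Markers of monocytes and granulocytes moved with these changes. All 15 rose in HOXA9_KO and in SAFB_KO and 13 of 14 tested in MEIS1_KO. Their summed level was 4864 to 4972 CPM in NT, 30690 to 33627 CPM in HOXA9_KO and 13581 to 15267 CPM in SAFB_KO. In the MEIS1 experiment it was 3603 to 5332 CPM in the controls and 7443 to 7847 CPM in MEIS1_KO, and none of the 15 was at 0 in a whole group. CYBB rose by 2.71, 1.20 and 0.74 and TLR8 by 3.23, 1.88 and 0.76 in HOXA9_KO, SAFB_KO and MEIS1_KO. In the same order, VCAN rose by 1.96, 1.52 and 1.02, and FGL2 by 2.50, 1.87 and 0.95. Interferon response genes fell, 20 of 20 in HOXA9_KO and in SAFB_KO, from a summed 1726 to 2358 CPM in NT to 310 to 327 CPM and 480 to 525 CPM. IRF7 fell by 2.07 and 1.64, IFI27 by 4.18 and 3.12, DDX60 by 2.46 and 1.48 and OAS1 by 2.77 and 2.08. In MEIS1_KO 3 of 20 rose by edgeR (MX2 by 0.58, OAS3 by 0.91 and OAS1 by 0.51) and 8 by DESeq2, at 697 to 986 CPM against 482 to 659 CPM. The part of either set in the changes of the BCL2 family was not tested.

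Across the 17 libraries, each centred on the non-targeting mean of its own experiment, the 5 of 10799 protein-coding genes whose log2 CPM followed BCL2 most closely were SYNPO2 (Pearson r = 0.997), CEP70 (0.994), RFC4 (0.992), TEC (0.992) and PRR5L (0.991). For MCL1 they were SLC22A18 (0.952), AKIRIN1 (0.945), SLC2A13 (0.932), LMNA (0.931) and CSF2RB (0.930). The libraries fall into 5 groups and share their controls, so these values describe likeness over group levels and carry no test.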

How the data were processed

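RNA of MOLM13 cells was sequenced as stranded, ribosomal RNA-depleted paired-end libraries, per the labels' protocols. Per the submitters' processing notes, the tools were STAR 2.7.10a, HTSeq 1.99.2, bedtools and Trim Galore, with build hg38. How strand was handled and which annotation was counted is not stated in what was used here. The deposited values are whole-number counts per gene in each of 17 libraries. All 17 were read in the same way and analysed as counts, those of the MEIS1 experiment included. GENCODE 29 holds 57940 of 58278 identifiers and all 10 members. Here, counts were filtered with filterByExpr (minimum 10 counts, 15 overall), given TMM factors and tested with edgeR 4.0.16 (robust quasi-likelihood F test, R 4.3.3) in 3 fits: 9 libraries (HOXA9, SAFB and their controls), 8 libraries (MEIS1 and its controls), and all 17 for differences between effects. Benjamini-Hochberg adjustment ran over every gene of a fit. The SE is the log2 fold change divided by the root of F, intervals of 95% are normal, and CPM use TMM within each experiment. CPM for the likeness to BCL2 and MCL1 instead use TMM over all 17 libraries. Common coefficients of biological variation were 4.63% and 6.75%. Count ratios were tested by exact permutation in SciPy 1.17.1.

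Named genes were all 10 members, the 3 targeted genes, the tested family genes outside the 10, up to 4 genes of each pathway list by the smallest p, and the 5 genes most like BCL2 and MCL1 with a mean of at least 2 CPM. The members and lists were chosen with earlier results of these data known. P-values measure the spread between libraries, which may be technical. Alternatives were RLE factors, scaling to nuclear protein-coding counts, DESeq2 1.42.0, limma-voom 3.58.1, no low-count filter or one at a mean of 2 CPM, the replicate number as a block, other libraries in the fit and leaving out each library. The edgeR fit was also run on simulated counts with few genes changed, equally up and down, which cannot test the choice of scaling. Protein sequences were not used here.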

Additional observations from a re-analysis of the deposited data

Results flagged for a closer look

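In the MEIS1 controls, 1 of 4 libraries stood apart for BCL2A1: NT_MEIS1ex replicate 1 held 1.499 CPM, against 0.9325 to 0.9896 CPM in the other 3. Its gap to the next library was 0.899 of the whole range, above Dixon's 95% critical value for 4 samples. This was the only one of 26 groups of 4 examined that did so, and chance alone flags about 1 in 20. The value rests on 42 reads, against 25 to 30 in the other 3, and the same library also held the highest BAX and BBC3 of the controls. HOXA9 was not among the groups examined. For it, NT_MEIS1ex replicate 4 held 38.7 CPM, against 47.9 to 48.9 CPM in the other 3 controls.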

How the results depend on the processing

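Of the alternatives tried for single members, 1121 values kept their direction and their side of the threshold, 31 lost a call, 20 gained 1 and 22 changed sign. BCL2 fell in all 3 knockouts under every alternative run. Scaling to nuclear protein-coding counts changed the most, and turned BID to -0.167 in HOXA9_KO, -0.108 for HOXA9_KO against SAFB_KO and -0.0868 for the HOXA9 minus the MEIS1 effect, and MCL1 to -0.0147 and -0.0891 in the last 2. It also changed the sign of differences that were called under neither scaling: BAD to -0.1308 in HOXA9_KO, -0.0864 in SAFB_KO, -0.0444 for HOXA9_KO against SAFB_KO and -0.0054 for the HOXA9 minus the MEIS1 effect, BID to -0.0584 in SAFB_KO, and BCL2L1 to -0.0933 and MCL1 to -0.0746 for the SAFB minus the MEIS1 effect. All genes called higher and lower became 2861 and 9293 in HOXA9_KO, 1712 and 5535 in SAFB_KO, 2449 and 5845 for HOXA9_KO against SAFB_KO, 1867 and 7777 for the HOXA9 minus the MEIS1 effect and 612 and 3496 for the SAFB minus the MEIS1 effect. Members called became 3 higher and 4 lower for HOXA9_KO against SAFB_KO, 2 higher for the HOXA9 minus the MEIS1 effect and 0 higher for the SAFB minus the MEIS1 effect. Lower calls were gained by BIK for the HOXA9 minus the MEIS1 effect (-0.4441, adjusted p = 0.00521) and by BCL2L11 for the SAFB minus the MEIS1 effect (-0.3527, 0.00752). A mean of at least 2 CPM turned BAD in SAFB_KO to -0.0021 and gave 3 and 0 members higher for these last 2. It gave 1423 genes higher for the SAFB minus the MEIS1 effect. BCL2A1 does not reach that mean and was not tested under it. Testing genes of both single fits gave 1 member higher for the SAFB minus the MEIS1 effect. One fit of all 17 libraries called 1165 genes lower in MEIS1_KO, against 604. With each library left out in turn, MEIS1_KO had 487 to 944 genes higher, 264 to 828 lower and 0 to 1 members higher. Without MEIS1_KO replicate 3 these were 487 and 264 genes, and the genes lower were 362 and 327 without MEIS1_KO replicates 1 and 2 and 388 and 324 without NT_MEIS1ex replicates 3 and 4. In the same way, HOXA9_KO against SAFB_KO had 3 to 5 members higher, and the SAFB minus the MEIS1 effect 1 to 4. Signs of uncalled differences also changed, with ranges of -0.1582 to 0.0352 for BCL2L11 and -0.0149 to 0.1691 for BAD in SAFB_KO, -0.0201 to 0.0535 for BID and -0.0457 to 0.1503 for BAD for HOXA9_KO against SAFB_KO, and -0.0156 to 0.1943 for BCL2L1 for the SAFB minus the MEIS1 effect. The cause of these shifts was not tested. BCL2L1 and MCL1 for HOXA9_KO against SAFB_KO were not called without SAFB_KO replicate 1 (0.24 and 0.07), and BCL2L1 without HOXA9_KO replicate 2 (0.24) nor MCL1 without HOXA9_KO replicate 1 (0.09). BAK1 for the SAFB minus the MEIS1 effect was not called without NT replicate 1 (0.24, adjusted p = 0.0661).

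Deviations of libraries with the same replicate number correlated at -0.23 to 0.0925 across genes, none over 0.1, and the numbers were not taken to pair the samples. Each of 26 matches of a library with another group had 3 or 4 candidates. Of these matches, 13 were best with the library's own number, more than random picks would give on average. Matches between NT and SAFB_KO were best with the own number in 3 of 3 libraries each way, at correlations of 0.0153 to 0.0328. With a replicate block, genes called in MEIS1_KO went from 783 higher and 604 lower to 729 and 466, 1 member in place of 2 was higher for the SAFB minus the MEIS1 effect, and all other counts of members were the same as without it. Pairing cannot move a difference of mean log2 ratios between groups of equal size, such as -1.97 for BCL2:MCL1 in HOXA9_KO, so it is no check of the ratios. Low reads limit BCL2A1, at 15 to 64 in NT, and BAD, at 125 to 348 reads a library.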
